A study of Mus musculus with 354 samples.

Results

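The cells described here were the GFP+ cochlear cells of both genotypes that lacked the network genes *Spp1*, *Timp1*, *Mmp9* and *Dmp1*. They were chosen by their total count and by the levels of these 4 genes: a total of at least 100000 counts, with none of the 4 genes at 100 CPM (counts scaled to a cell total of 1000000) or more. Of 354 cells, 319 had 100000 counts or more, and 196 of these were chosen. The CA-ERBB2 cells numbered 95 of 175 (54.3%) and the Control cells 101 of 144 (70.1%). A cell of either genotype with 1 or more of the genes at 100 CPM was left out, which removed 80 CA-ERBB2 and 43 Control cells.

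The study sorted single supporting cells (SCs) from the cochleae of neonatal mice into plates, and sequenced full-length cDNA from each well. All pups carried *Fgfr3-iCre* and *ROSA-floxed-rtTA/GFP*, and the CA-ERBB2 pups also carried *TetON-CAERBB2*, a doxycycline-inducible, constitutively active form of the receptor ERBB2. Controls were littermates without that transgene. Each genotype had 177 cells, on 3 plates of 59. According to the protocols, pups received tamoxifen at 75 mg/kg on postnatal days (P) 0 and 1 and doxycycline at 100 mg/kg on P2, and cochleae were collected on P3. The treatment is tagged on 177 CA-ERBB2 and 0 Control samples, although the protocol text is the same for both. The *Fgfr3* promoter drives Cre in Deiter, pillar and Hensen cells, and also in some outer hair cells (HCs), and the labelling was sparse and biased to the apex. Between 2 and 4 cochleae were digested together in each tube, and the labels do not tie a cell to a pup. Each plate was taken as a replicate, so p-values measure the spread between plates.

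ERBB2 is a receptor tyrosine kinase that has no ligand of its own. It forms dimers with EGFR, ERBB3 or ERBB4, and it activates the RAS-ERK and PI3K-AKT pathways, whose feedback inhibitors include the Sprouty proteins and the dual specificity phosphatases. SCs surround the sensory HCs of the organ of Corti, hold them in place and share with them an origin in the SOX2+ prosensory domain. In mammals they do not normally replace lost HCs.

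The share of cells chosen was 67.8% on plate 1 of both genotypes. For plates 2 and 3 it was 46.6% and 48.3% in CA-ERBB2 and 61.1% and 79.6% in Control. *Spp1* was the gene that most often removed a cell, in 70 of the 80 CA-ERBB2 and 31 of the 43 Control cells left out. All 4 genes reached 100 CPM in 36 of those 80 CA-ERBB2 cells and in 0 of the 43 Control cells. A single gene had removed 24 CA-ERBB2 and 35 Control cells. Among the chosen cells *Spp1*, which encodes osteopontin, was still detected in 61 of 95 CA-ERBB2 and 25 of 101 Control cells, with medians of 0.756 and 0 CPM. *Timp1* was detected in 39 and 20 cells, *Mmp9* in 15 and 10, and *Dmp1* in 8 and 4. Since these levels set the choice, they carry no test. The CA-ERBB2 cell just inside the limit had 86.8 CPM (*Mmp9*) and the one just outside 100.3 CPM (*Timp1*). The Control cell just inside had 97.1 CPM (*Dmp1*) and the one just outside 102.1 CPM (*Spp1*).

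**Figure D1:**
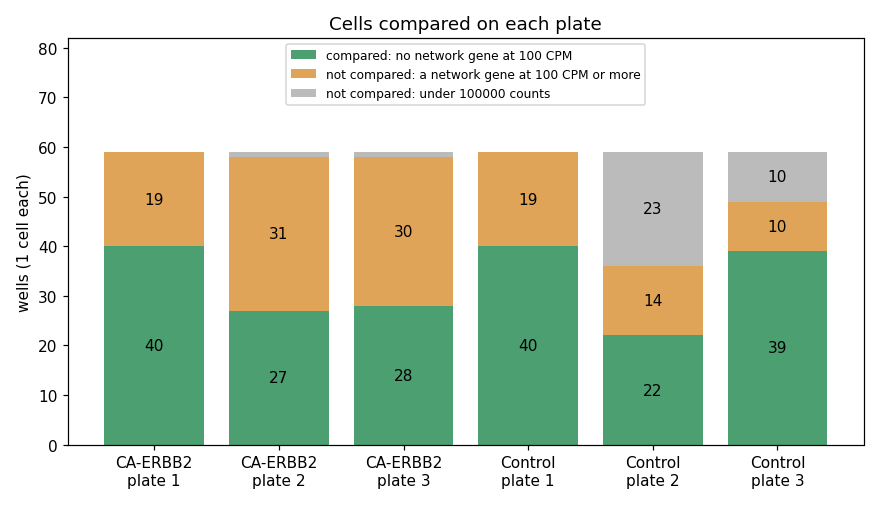
Wells per plate (vertical axis, 1 cell each) for the 3 plates of each genotype. Green, cells compared. Orange, cells with a network gene at 100 CPM or more. Grey, cells under 100000 counts. Each bar holds 59 wells, and Control plate 2 had 36 cells at 100000 counts or more, the fewest of any plate.

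The plates differed in quality. The chosen cells held between 105218 and 5178221 counts, and the summed counts of a plate lay between 45126481 and 126063144. The median number of genes detected per cell for plates 1, 2 and 3 was 10800, 2929 and 1114 in CA-ERBB2 and 9106, 4351.5 and 2505 in Control. The plates numbered 1 stood above all others, and the genotypes overlapped (two-sided exact permutation p = 1, with 0.1 the smallest that 3 plates against 3 allow). On plates 2 and 3 of both genotypes the level of many of the genes named here came mostly from 1 cell, as given beside several of them. PCR reads without molecular identifiers are not independent molecules, so every limit drawn from a count of 0 covers counting error only.

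Markers showed that the chosen cells were a mixture. Of 7 markers of SCs and otic epithelium (*Sox2*, *Fgfr3*, *Prox1*, *Jag1*, *Epcam*, *Cdh1*, *Sox10*), 3 or more were at 100 CPM or more in 47 of the 196 cells (24.0%), called otic epithelium-like here. Another 57 cells (29.1%) had instead 3 or more of 6 markers of mesenchyme (*Col1a1*, *Col1a2*, *Col3a1*, *Pou3f4*, *Tbx18*, *Coch*) at that level, and 92 cells (46.9%) met neither limit. CA-ERBB2 plates 1, 2 and 3 held 17, 4 and 1 otic epithelium-like cells, and the Control plates 14, 3 and 8. The mesenchyme-like cells numbered 19, 4 and 3 on the CA-ERBB2 plates and 20, 5 and 6 on the Control plates. Most of the CA-ERBB2 cells on plates 2 and 3 (19 of 27 and 24 of 28) met neither limit, so for most of them the labelled cell type could not be checked. The limits were set after the values were seen and cut a continuous range. Otic epithelium-like cells with exactly 3 of the 7 markers numbered 2 in CA-ERBB2 and 8 in Control, cells with 2 of the 7 numbered 8 and 9, and 7 of the 47 also met the limit for mesenchyme. Because the sort was by GFP alone and the markers could themselves differ by genotype, the sizes of these classes were not compared.

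Over the plate sums, markers of the targeted SCs and of mesenchyme did not separate the genotypes, and markers of blood did. The summed levels of lists, here and below, are CPM of the plate sum with no further scaling. The 14 markers of pillar and Deiter cells summed to 4741 to 6107 CPM on the CA-ERBB2 plates and to 3556 to 6528 CPM on the Control plates (exact permutation p = 0.4). The 6 markers of mesenchyme summed to 2553 to 5996 and 3880 to 5331 CPM (exact permutation p = 0.6). None of these markers was at 0. The 3 markers of red blood cells summed to 24.7 to 236 CPM in CA-ERBB2 and to 4797 to 9364 CPM in Control (exact permutation p = 0.1, the smallest possible). This separation was in level and not in the number of cells. Cells with haemoglobin genes summing to 100 CPM or more numbered 1, 3 and 7 on CA-ERBB2 plates 1, 2 and 3. On the Control plates they numbered 2, 5 and 6, and most *Hbb-bs* counts there came from 1 cell per plate, as given below.

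*Erbb2*, the gene the transgene carries, was higher in CA-ERBB2 on plates 1 and 2 only. Its level, as CPM of the plate sum scaled by TMM (the trimmed mean of M values), for plates 1, 2 and 3 was 127, 39.9 and 4.17 in CA-ERBB2 and 20.5, 3.29 and 17.0 in Control. The groups overlapped, because CA-ERBB2 plate 3 lay below Control plates 1 and 3. The log2 fold change was 2.07 (SE 1.23), with an edgeR adjusted p of 0.999. The gene lies on chromosome 11 at 98412470 to 98437716 on the plus strand of GRCm38, and the counts do not separate the transgene from the endogenous gene. It was detected in 33 of 40, 8 of 27 and 2 of 28 CA-ERBB2 cells, and in 26 of 40, 3 of 22 and 5 of 39 Control cells. The mean share of the plates was 9.27 percentage points higher in CA-ERBB2 (exact permutation p = 0.7). At 100 CPM or more it was seen in 18, 3 and 0 CA-ERBB2 cells and in 2, 0 and 2 Control cells. The 80 CA-ERBB2 cells that were left out had *Erbb2* detected in 39.

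Most cells with high *Erbb2* on CA-ERBB2 plate 1 were otic epithelium-like. On plate 1 it was at 100 CPM or more in 15 of 17 such CA-ERBB2 cells and in 1 of 14 such Control cells, with medians of 313 and 17.5 CPM. On plate 2 the counts were 1 of 4 and 0 of 3, and on plate 3, 0 of 1 and 1 of 8. Among mesenchyme-like cells it reached 100 CPM in 4 of 26 CA-ERBB2 and 2 of 31 Control cells, and among the cells with neither set of markers in 1 of 47 and 0 of 45. These counts describe cells of few plates and were not tested.

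**Figure D2:**
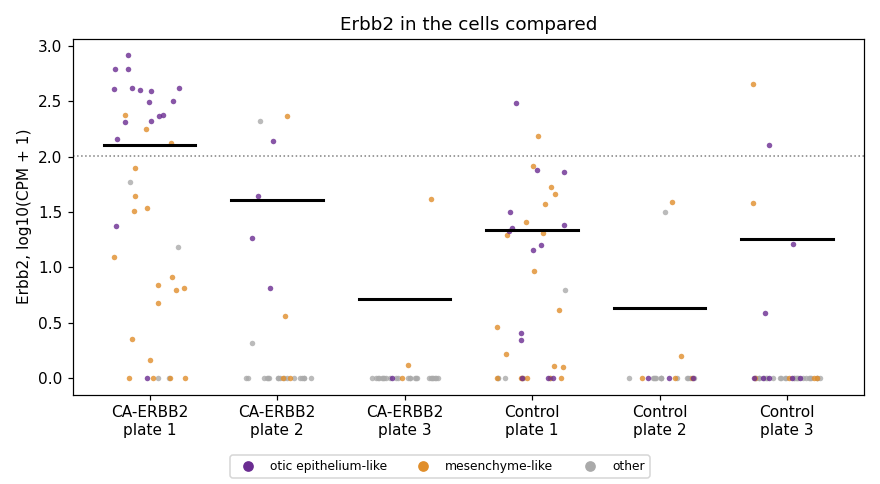
*Erbb2* in each compared cell, as log10(CPM + 1), by genotype and plate. Points are cells, coloured by the markers they carry (purple, otic epithelium-like; orange, mesenchyme-like; grey, neither). Black bars are the CPM of the plate sum after TMM, and the dotted line is 100 CPM. On CA-ERBB2 plate 1, 15 of the 17 purple points lie above the line, and on Control plate 1 it is 1 of 14.

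No gene passed the test between the genotypes in these cells. With edgeR, 0 of 18697 genes tested (0.0%) had an adjusted p under 0.05 with a log2 fold change over 1 in either direction. Without adjustment, 597 genes had a p under 0.05, of which 368 were higher in CA-ERBB2 (1.97% of those tested) and 229 lower (1.22%). DESeq2, run over all genes with a count, called 212. In simulated plates with the observed spread, 200 genes were changed, all drawn from those with a mean level above the median. Among them the edgeR test found 5% of 8-fold and 86% of 64-fold changes. With 0 genes changed it called 3. The 0 genes called in the real plates therefore do not show that 8-fold changes were absent. The number at an unadjusted p under 0.05 was 2104 (652 higher and 1452 lower) without CA-ERBB2 plate 1, and between 503 and 871 without any other plate. Without TMM scaling it was 345, split into 173 higher and 172 lower. The median log2 fold change over all genes tested was -0.07 with TMM and -0.27 without. Every CA-ERBB2 plate lay above every Control plate for 475 genes (2.54%) and below for 941 (5.03%). The 10 protein-coding genes of smallest unadjusted p in each direction, among those detected in at least 20 of the cells and with plates that did not overlap, are given next. Each had an edgeR adjusted p of 0.999.

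The genes higher in CA-ERBB2 were led by *S100a6*, *Tpd52l1* and *Rbp7*. *S100a6* encodes calcyclin, a calcium-binding protein, and lies on chromosome 3 at 90612882 to 90624181. For plates 1, 2 and 3 it was at 717, 2329 and 2738 CPM in CA-ERBB2 and at 58.5, 138 and 72.2 CPM in Control. The lowest CA-ERBB2 plate was thus well above the highest Control plate, and the log2 fold change was 4.43 (SE 0.81, edgeR unadjusted p = 0.00027). Any count of it was seen in 23, 7 and 7 cells of the CA-ERBB2 plates and in 19, 9 and 8 cells of the Control plates. A level of 100 CPM or more was reached in 15, 5 and 6 against 5, 5 and 5 cells, and the median of the cells with a count was 1213 CPM against 62.7 CPM. A single cell gave 60.6% and 57.2% of its counts on CA-ERBB2 plates 2 and 3.

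*Tpd52l1*, a member of the tumour protein D52 family linked to vesicle traffic, was at 175, 344 and 580 CPM in CA-ERBB2 and 27.2, 18.1 and 18.8 CPM in Control. Its log2 fold change was 4.10 (SE 0.77). It reached 100 CPM in 18, 5 and 3 CA-ERBB2 cells and in 5, 1 and 1 Control cells. *Aebp1*, which encodes a secreted collagen-binding protein also known as ACLP, was the most even of the 10 between plates. It lies on chromosome 11 at 5861947 to 5872088, and its levels were 125, 109 and 115 CPM in CA-ERBB2 and 13.5, 11.3 and 4.17 CPM in Control (log2 fold change 3.59, SE 0.82, edgeR unadjusted p = 0.0014). At 100 CPM or more it was found in 20, 2 and 2 CA-ERBB2 cells and in 2, 0 and 0 Control cells. On CA-ERBB2 plates 2 and 3 a single cell held 64.6% and 76.8% of its counts. *Fxyd3*, a regulator of the sodium and potassium pump in epithelia, was at 152, 236 and 1142 CPM against 33.2, 18.3 and 3.24 CPM (log2 fold change 4.80, SE 1.16). On CA-ERBB2 plate 3 the only cells with a count of *Fxyd3* had 6448, 4485 and 80.8 CPM.

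The other 6 higher genes reached 100 CPM in 2 to 7 CA-ERBB2 cells each, against 18 to 26 for the 4 above. *Rbp7*, a cytosolic retinol-binding protein, had the largest log2 fold change of the 10, at 8.44 (SE 1.61), with 133, 408 and 4684 CPM in CA-ERBB2 and 2.28, 2.57 and 10.2 CPM in Control. It was detected in 12, 2 and 3 CA-ERBB2 cells, and a single cell gave from 54.8% to 99.5% of its counts on each of these plates. *Asl*, the urea cycle enzyme argininosuccinate lyase, was at 20.8, 144 and 337 CPM against 6.03, 5.53 and 5.24 CPM, with 94.5% and 98.5% of its counts from 1 cell on CA-ERBB2 plates 2 and 3. Its log2 fold change was 4.90, but 1.10 in cells with 2000 or more genes and 0.66 in cells with the network genes under 10 CPM. *Runx1*, *Tsacc*, *Exosc7* and *Lpar2* had log2 fold changes of 6.40, 6.51, 4.54 and 6.01. *Exosc7*, a subunit of the RNA exosome, turned to -0.43 when only cells with 2000 or more genes were kept, and *Tsacc* was then at 3.48. A single cell held more than 50% of the counts for 9 and 10 of the 10 genes on CA-ERBB2 plates 2 and 3, and for 1 of the 10 on plate 1.

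**Figure D3:**
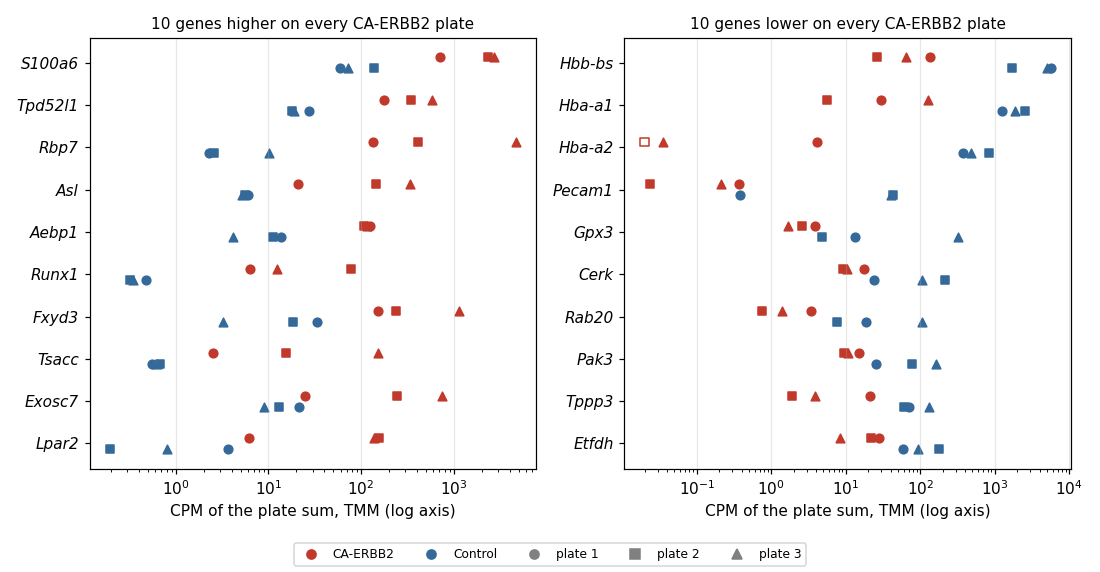
CPM of the plate sums after TMM (horizontal, log axis) for the 10 higher genes (left) and the 10 lower genes (right). Red, CA-ERBB2. Blue, Control. The shape gives the plate, and an open symbol is a plate with 0 counts, drawn at 0.02. The genes were picked because their plates do not overlap, so the separation of colours is part of the choice.

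The lower genes were led by haemoglobin. *Hbb-bs* was at 136, 26.0 and 64.6 CPM in CA-ERBB2 and at 5611, 1709 and 4983 CPM in Control, and *Hba-a1* and *Hba-a2*, near-identical copies whose reads the counting could split, had log2 fold changes of -5.12 and -8.65. A single cell gave 99.9%, 98.3% and 92.9% of the *Hbb-bs* counts on the Control plates. Without the cells in which haemoglobin genes summed to 100 CPM or more, the log2 fold changes of *Hbb-bs* and *Hba-a1* were 0.66 and 0.47. *Pecam1*, an adhesion molecule of endothelium, was at 0.367, 0.0237 and 0.212 CPM against 0.383, 42.6 and 40.5 CPM. Its Control levels on plates 2 and 3 came from 1 cell each, with 94.0% and 98.5% of the counts. *Gpx3*, an extracellular glutathione peroxidase, was at 3.87, 2.63 and 1.70 CPM against 13.4, 4.78 and 317 CPM.

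The other lower genes included *Etfdh* and *Tppp3*. *Etfdh*, which passes electrons from fatty acid oxidation to the respiratory chain, was at 27.8, 21.6 and 8.34 CPM in CA-ERBB2 and 59.4, 178 and 94.4 CPM in Control (log2 fold change -2.52, SE 0.84, edgeR unadjusted p = 0.013). It was detected in 33, 3 and 3 CA-ERBB2 cells and in 28, 13 and 10 Control cells, and it reached 100 CPM in 2, 1 and 0 against 11, 5 and 4. *Tppp3*, a tubulin polymerisation protein, was at 21.0, 1.92 and 3.82 CPM against 69.5, 60.5 and 131 CPM. The plates of these genes do not overlap by the way they were picked. *Cerk*, *Rab20* and *Pak3* had log2 fold changes of -3.22, -4.56 and -2.91. In cells with 2000 or more genes these were -0.19, -2.13 and -1.79, and that of *Gpx3* was -2.77. None of the 10 had an adjusted p under 0.05. A single cell held more than 50% of the counts for 4, 8 and 9 of the 10 genes on Control plates 1, 2 and 3. On the CA-ERBB2 plates it was 4, 9 and 7. The highest Control cell had 7020 CPM of *Cerk*, 6073 CPM of *Rab20*, 8245 CPM of *Pak3* and 9243 CPM of *Gpx3*.

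The higher genes tended to be found together. At least 3 of the 10 reached 100 CPM in 13 of 40, 3 of 27 and 3 of 28 CA-ERBB2 cells and in 0 of 40, 0 of 22 and 0 of 39 Control cells. The genes were chosen on these cells, so this is a description. In the cells left out for a network gene, where the choice was not made, it was 2 of 19, 2 of 31 and 1 of 30 in CA-ERBB2 and 4 of 19, 1 of 14 and 0 of 10 in Control.

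Of the genes that the study named for the strongly responding cells, *Serpinb2* and *Il12a* had no count in any of the 95 CA-ERBB2 or 101 Control cells. A count of 0 allows shares of cells with a read of up to 7.5%, 11.1% and 10.7% on CA-ERBB2 plates 1, 2 and 3, and it does not limit the share of cells that express the gene. *Bglap* was detected in 3 and 3 cells and *Hpx* in 4 and 4. *Bglap2* was detected in 1 CA-ERBB2 cell, on plate 3 at 1000 CPM, and in 0 Control cells. *Cd63*, a tetraspanin, was at 915, 1700 and 2582 CPM in CA-ERBB2 and 497, 906 and 731 CPM in Control (log2 fold change 1.28, SE 0.65, edgeR unadjusted p = 0.076). Its lowest CA-ERBB2 plate lay only just above its highest Control plate. *Tmsb4x*, *Ank* and *Ptgis* had log2 fold changes of 1.39, 0.15 and -1.69, with overlapping plates for each. With *S100a6* and *Rbp7*, 6 genes of this set were tested: 5 were higher, 2 had an unadjusted p under 0.05 (1.97% of all genes did so in that direction) and 3 had every CA-ERBB2 plate above every Control plate (2.54% of all genes). The study picked them on these cells, so they are not independent evidence.

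The study named another set of genes for a separate cluster of CA-ERBB2 cells, and these were higher here. *Plet1*, an epithelial surface protein of progenitor cells, was at 219, 211 and 96.9 CPM on the CA-ERBB2 plates and at 2.96, 33.3 and 0.0926 CPM on the Control plates. Its log2 fold change was 3.86 (SE 1.54, edgeR unadjusted p = 0.031), it lies on chromosome 9 at 50494525 to 50505482, and its reads could include those of the antisense gene *Plet1os*. On CA-ERBB2 plate 3 nearly all *Plet1* counts came from 1 cell at 891 CPM, and the only other cell with a count had 0.734 CPM. *Krt17*, a keratin of basal and stressed epithelia on chromosome 11 at 100256217 to 100261029, was at 25.3, 52.6 and 24.3 CPM against 0.0370, 0 and 1.75 CPM (log2 fold change 5.84, SE 2.08, edgeR unadjusted p = 0.019). It came from 14, 2 and 1 CA-ERBB2 cells and from 1, 0 and 1 Control cells. *Rufy4* had a log2 fold change of 4.28. This set of 7 genes included *Wnt10a*, which the study's text names for its test between genotypes and not for that cluster. *Wnt10a* had no count in any cell. The 6 that were tested were higher, and 3 had an unadjusted p under 0.05 (1.97% of all genes in that direction), but the study picked them on these cells and this is not independent evidence either.

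*S100a14*, another calcium-binding protein of epithelia, had the smallest adjusted p of all genes, 0.17, and is named after its values were seen. It was at 53.2, 74.1 and 144 CPM on the CA-ERBB2 plates and had 0 counts on every Control plate. It was detected in 14, 1 and 1 CA-ERBB2 cells and in 0 of 40, 0 of 22 and 0 of 39 Control cells, which allows up to 7.5%, 13.6% and 7.69% of cells with a read. On CA-ERBB2 plates 2 and 3 all of its 3131 and 4079 counts came from 1 cell each. In the cells left out it was detected in 8 of 80 CA-ERBB2 and 2 of 43 Control cells.

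*Plet1*, *Krt17* and *S100a14* shared cells. All 16 CA-ERBB2 cells with *S100a14* had *Plet1*, and 14 of them had *Krt17*. Of the 17 CA-ERBB2 cells with *Krt17*, 16 had *Plet1* and 15 had *Erbb2*. The 3 genes were all detected in 14 CA-ERBB2 cells, of which 13 were on plate 1, 1 on plate 2 and 0 on plate 3. These 14 were rich in genes, with a median of 12347 detected against 3597 over all 95 cells, and detection of any gene moves with that number. The Control cells with *Plet1* numbered 11, of which 1 had *Krt17* and 0 had *S100a14*.

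Most CA-ERBB2 cells with *Plet1*, *Krt17* or *S100a14* were otic epithelium-like, though not all. *Plet1* was at 100 CPM or more in 15 of 17, 3 of 4 and 1 of 1 such cells on CA-ERBB2 plates 1, 2 and 3, and in 0 of 14, 1 of 3 and 0 of 8 on the Control plates. Its median was 593 CPM in the 22 CA-ERBB2 cells and 0 in the 25 Control cells. Counting only cells with at least 4 of the 7 markers, it was 18 of 20 against 1 of 17. Outside this class *Plet1* reached 100 CPM in 0 of 73 CA-ERBB2 cells and 1 of 76 Control cells.

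In the same class *Tpd52l1* reached 100 CPM in 19 of 22 CA-ERBB2 and 2 of 25 Control cells, with medians of 514 and 15.1 CPM. *Aebp1* reached it in 14 and 0 cells (medians 252 and 0 CPM), *Fxyd3* in 14 and 3 (199 and 0 CPM) and *S100a6* in 16 and 9 (2498 and 51.3 CPM). *Cldn7*, a tight junction claudin, was at a median of 429 CPM in CA-ERBB2 and 91.2 CPM in Control. *Etfdh* was lower, at 100 CPM or more in 0 and 9 cells, with medians of 19.6 and 71.9 CPM.

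A gene of ERK feedback, targets of NOTCH and *Ldha* had higher medians in these CA-ERBB2 cells on plate 1, and only *Ldha* among them did so on plate 3. *Spry1*, a feedback inhibitor of receptor tyrosine kinase signalling, was at 100 CPM or more in 14 of 17 CA-ERBB2 and 7 of 14 Control cells of plate 1, with medians of 428 and 86.9 CPM. On plates 2 and 3 it was 1 of 4 and 0 of 1 against 0 of 3 and 0 of 8. *Hey2*, a NOTCH target that represses HC fate, had plate 1 medians of 174 and 20.1 CPM, and *Hes5*, another NOTCH target and a Deiter cell marker, of 400 and 2.14 CPM. On plate 3 the 1 CA-ERBB2 cell was below the Control median for both, at 2.93 against 12.2 CPM for *Hey2* and 0 against 69.7 CPM for *Hes5*. At 100 CPM or more *Hey2* was found in 13 of 17, 2 of 4 and 0 of 1 CA-ERBB2 cells and in 4 of 14, 0 of 3 and 2 of 8 Control cells. *Ldha*, which makes lactate, had medians of 1012 and 243 CPM on plate 1, 1043 and 125 CPM on plate 2 and 451 and 214 CPM on plate 3.

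The class members also differed in the genes that define SCs. On plate 1 the CA-ERBB2 cells had higher medians of *Fgfr3* (1094 against 125 CPM), *Prox1* (194 against 33.9 CPM) and *Epcam* (2807 against 1192 CPM). The median of *S100b*, a pillar cell marker, was lower (125 against 343 CPM). Other pillar cell markers went the other way there: *Cryab* (1815 against 608 CPM), *Emid1* (719 against 229 CPM), *Smagp* (471 against 78.4 CPM) and *Ppp1r2* (2019 against 258 CPM). *Fgfr3* was also higher on plate 2 (695 against 321 CPM) and plate 3 (1068 against 704 CPM, with 1 CA-ERBB2 cell). On plate 1 it was detected in 16 of 17 CA-ERBB2 and 7 of 14 Control cells. The directions of *Prox1*, *Epcam*, *S100b* and *Emid1* (149 against 297 CPM on plate 3) did not hold on every plate. *S100b* was higher in CA-ERBB2 on plate 2 (148 against 66.3 CPM) and plate 3 (331 against 285 CPM), while *Prox1* (0 against 95.6 CPM) and *Epcam* (620 against 1252 CPM) were lower on plate 3. *Sox2* had plate 1 medians of 191 and 130 CPM and *Sox10* of 144 and 162 CPM. The median number of genes detected in the class was 12350 on CA-ERBB2 plate 1 and 11104.5 on Control plate 1. The part of the SC subtype and of the level of all these markers in the differences above was not tested. Of the 22 CA-ERBB2 cells 17 came from 1 plate, so they are not 22 replicates, and the class was given no test.

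**Figure D4:**
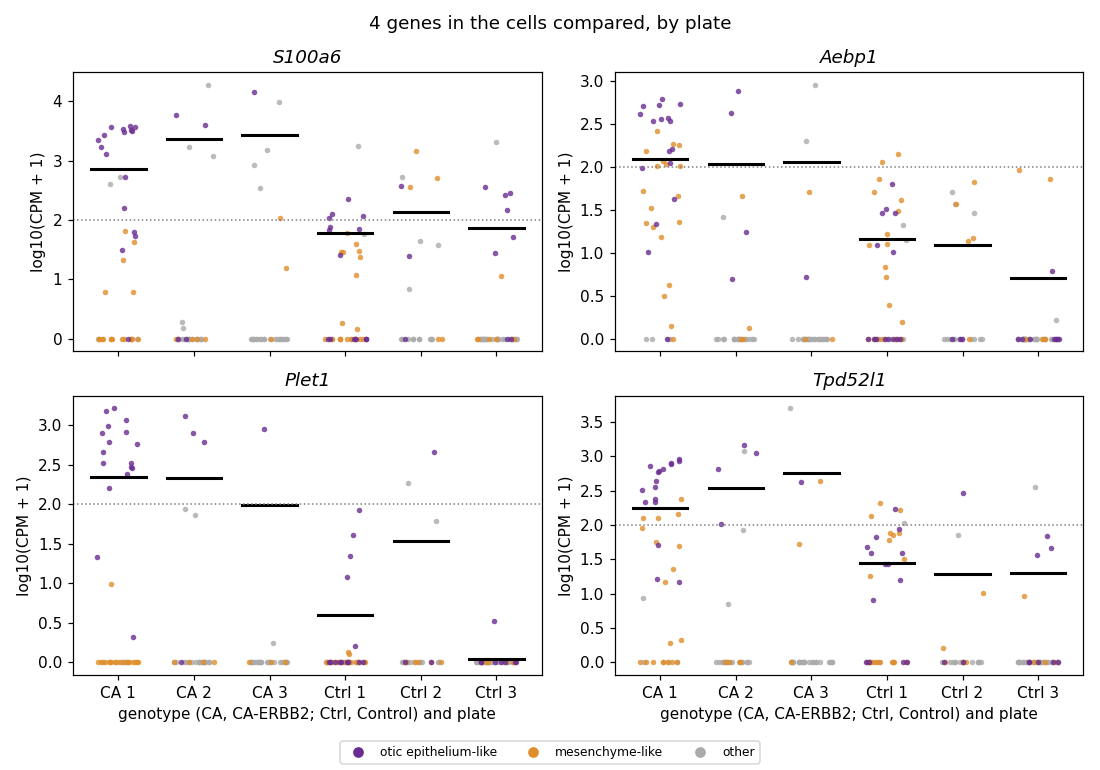
*S100a6*, *Aebp1*, *Plet1* and *Tpd52l1* in each compared cell, as log10(CPM + 1), by genotype and plate (CA, CA-ERBB2; Ctrl, Control). Points are cells, coloured by the markers they carry (purple, otic epithelium-like; orange, mesenchyme-like; grey, neither), black bars are the CPM of the plate sum after TMM, and the dotted line is 100 CPM. For *Plet1*, 19 purple points lie above the line in CA-ERBB2 and 1 in Control.

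In mesenchyme-like cells fewer cells held these genes at 100 CPM. Of 26 CA-ERBB2 and 31 Control cells, *Plet1* was at 100 CPM or more in 0 and 0, *Fxyd3* in 0 and 0 and *S100a6* in 1 and 3. *Tpd52l1* reached it in 5 and 3. *Aebp1* reached it in 8 CA-ERBB2 cells, all on plate 1, and in 2 Control cells, with medians of 26.9 and 5.77 CPM. *Etfdh* had a higher median in CA-ERBB2 here, 51.0 against 0.264 CPM, and was detected in 20 and 16 cells. *Cd63* was at medians of 682 and 594 CPM. Among the 47 CA-ERBB2 and 45 Control cells with neither set of markers, *S100a6* reached 100 CPM in 9 and 3, and *Etfdh* was detected in 0 and 14. Some of these CA-ERBB2 cells held the higher genes at high levels. The 1 cell with *S100a14* on plate 3 (1497 CPM) had *Tpd52l1* at 5022, *Fxyd3* at 4485 and *Aebp1* at 919 CPM. A cell of plate 2 had *S100a6* at 19278, *Tpd52l1* at 1209 and *Fxyd3* at 1098 CPM.

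Gene lists placed these genes in groups, with the same edgeR comparison of plate sums. The list of keratins and epidermal genes had the highest median of the lists with 10 or more genes tested. Of its 17 genes tested 14 were higher in CA-ERBB2, against 8951 of all 18697 genes. Of these 14, 7 had an unadjusted p under 0.05 (1.97% of all genes in that direction), and none of the lower ones did. The median log2 fold change was 2.05 against -0.07 over all genes. Its summed level, without TMM, was 2827 to 4926 CPM on the CA-ERBB2 plates and 960 to 1210 CPM on the Control plates. These did not overlap (exact permutation p = 0.1, the smallest possible). Over the alternatives the median lay between 0.31 and 2.54 and the number higher at an unadjusted p under 0.05 between 1 and 11. The list holds *S100a6*, *Plet1* and *Krt17*, which the study picked on these cells. The list was also chosen with earlier results of these data known, so it is not independent evidence. Of its other genes, *Cldn7* was at 158, 198 and 174 CPM against 50.4, 48.3 and 35.5 CPM (log2 fold change 1.98, SE 0.66, edgeR unadjusted p = 0.013). *Krt18*, a keratin of simple epithelia, was at 116, 106 and 605 CPM against 28.9, 82.1 and 31.7 CPM (log2 fold change 2.54). *Krt23* and *Klf5* were lower, at -4.28 and -2.74, without reaching that threshold.

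Of 5 markers of the cochlear roof tested, *Oc90* and *Rnase1* were higher at an unadjusted p under 0.05 (1.97% of all genes). The median was 1.55, but -0.01 with no selection on network genes, and the sum of the list was 299 to 731 CPM against 56.3 to 121 CPM. *Oc90*, an otoconial protein, was at 150, 16.6 and 253 CPM against 9.10, 7.59 and 14.4 CPM (log2 fold change 3.75, SE 1.04). A single cell gave 65.5%, 55.6% and 68.0% of its counts on the CA-ERBB2 plates. Of the 8 CA-ERBB2 cells with *Oc90* at 100 CPM or more, 0 were otic epithelium-like, while any count of it was seen in 17 of the 25 CA-ERBB2 cells with *Plet1*.

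Of 20 HC genes tested 15 were lower, against 9746 of all 18697 genes, with a median of -1.53. An unadjusted p under 0.05 was reached by 2 of them (1.22% of all genes in that direction). Their summed level overlapped, at 706 to 1064 CPM in CA-ERBB2 and 404 to 3837 CPM in Control (exact permutation p = 0.4). *Pvalb*, which encodes parvalbumin, was at 21.7, 7.12 and 1.56 CPM against 2.93, 174 and 123 CPM, and *Ccer2* at 85.7, 30.0 and 31.8 CPM against 4.51, 915 and 286 CPM. *Atoh1*, the transcription factor that starts HC differentiation, was at 3.37, 0 and 0 CPM against 0.0555, 114 and 28.2 CPM. For all 3, Control plate 1 was below CA-ERBB2 plate 1 and Control plates 2 and 3 were high, so the groups overlapped. The 5 medial greater epithelial ridge markers had a median of -1.17, and their sum was 461 to 1008 CPM in CA-ERBB2 and 1398 to 1948 CPM in Control.

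The pathway lists gave few genes past an unadjusted p of 0.05. Of 13 ERBB receptors and ligands 0 passed it. *Egfr* was at 32.5, 5.13 and 5.73 CPM against 39.6, 103 and 50.7 CPM, every CA-ERBB2 plate lower (log2 fold change -2.15, SE 1.01, edgeR unadjusted p = 0.06). *Erbb3* and *Erbb4* had log2 fold changes of -1.43 and 1.96. Of 19 ERK feedback and ETV genes 1 passed it, *Dusp2*, and the median was 0.31. Of 18 AP-1 and immediate early genes 0 passed it, with a median of -0.02.

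Of 26 NOTCH pathway genes and *Sox2*, 13 were higher and 13 lower. *Hey2* passed the unadjusted threshold, at 58.2, 200 and 29.0 CPM against 27.1, 2.03 and 15.9 CPM (log2 fold change 2.67, SE 1.12, edgeR unadjusted p = 0.038). *Sox2*, the transcription factor of SCs and their progenitors, was at 69.2, 84.4 and 16.2 CPM against 55.3, 54.3 and 96.1 CPM, with a log2 fold change of -0.28 (SE 0.82, edgeR unadjusted p = 0.74). The groups overlapped, and the sign turned when CA-ERBB2 plate 3 (0.14) or Control plate 3 (0.04) was left out.

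Of 14 pillar and Deiter cell markers 9 were higher, with a median of 0.61. *Ppp1r2*, a protein phosphatase inhibitor, was at 663, 941 and 923 CPM against 221, 139 and 510 CPM (log2 fold change 1.54, SE 0.69, edgeR unadjusted p = 0.048). *Cryab*, a small heat shock protein, was at 672, 947 and 2265 CPM against 240, 509 and 579 CPM. Of 20 glycolysis genes 10 were higher and 10 lower. *Ldha* was at 562, 889 and 1016 CPM against 236, 246 and 343 CPM (log2 fold change 1.58, SE 0.61), and *Slc2a1*, the glucose transporter GLUT1, had a log2 fold change of 3.82.

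Proliferation genes did not separate the groups. Of 18 genes of S phase and 18 of G2 and M phase 0 had an unadjusted p under 0.05, with medians of -0.36 and 0.65. Ribosomal protein genes were higher for 76 of 86, with a median of 0.60 that lay between -0.59 and 0.99 over the alternatives. Cholesterol synthesis genes were lower for 16 of 20, with a median of -0.70, and 0 of either list had an unadjusted p under 0.05.

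**Figure D5:**
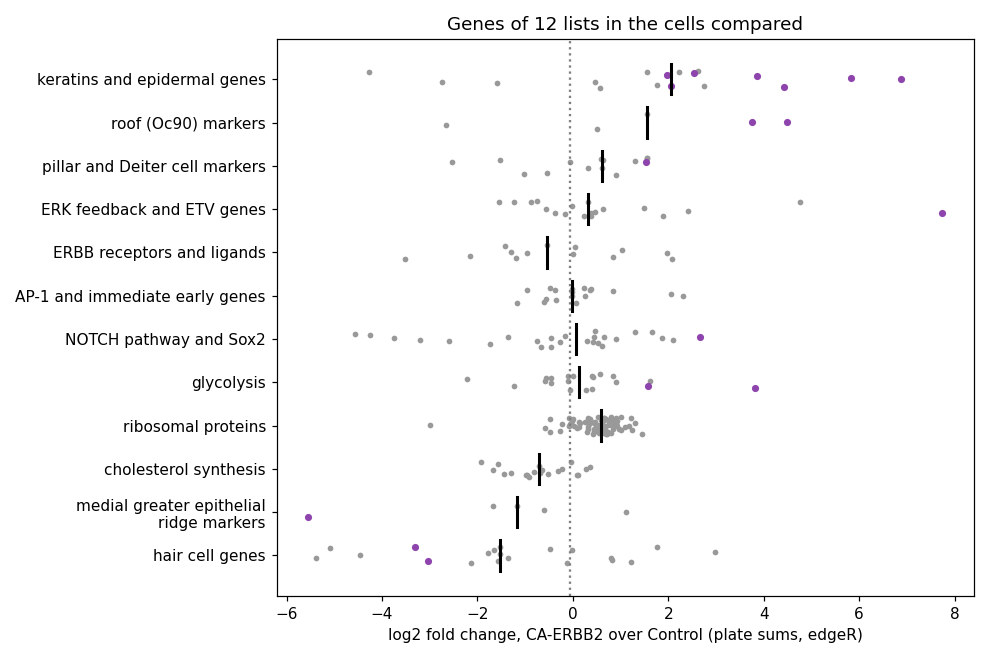
Log2 fold change of CA-ERBB2 over Control (horizontal) for the genes of 12 lists. Each dot is a gene, purple where the edgeR unadjusted p was under 0.05. Black bars are list medians, and the dotted line is the median of all genes tested (-0.07). The keratins and epidermal genes had a median of 2.05 and the HC genes of -1.53.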

How the data were processed

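Single-cell libraries were made with SMART-Seq Single PLUS, without molecular identifiers, from GFP+ cells gated against doublets. No doublet caller was run here. The authors trimmed reads, aligned them with STAR 2.7.6a to GRCm38 with Gencode M25, and counted reads on exons by gene name with featureCounts (Subread 2.0.1) in reversely stranded mode. The deposited values are whole-number counts for 55367 genes per cell, without normalization. The kit is not stated to mark strand, so antisense partners are uncertain.

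The cells and gene lists were chosen with earlier results of these data known. CPM was computed per cell from its total. Counts of the chosen cells were summed per plate (the number in the sample name), 3 against 3. The quasi-likelihood test of edgeR 4.0.16 was used (R 4.3.3, limma 3.58.1), after filterByExpr and TMM scaling. Benjamini-Hochberg adjustment covered all 18697 genes tested, the 4 network genes left out. TMM factors lay between 0.631 and 1.41. The code was tested on simulated data. Exact permutation tests, two-sided, compared single values per plate. Detection meant 1 count or more, and 3 cells were taken as the limit that a count of 0 allows. Named genes were *Erbb2*, the 4 network genes, the 10 genes per direction described in the text, up to 4 genes of smallest p per list, and genes that the study names. The classes of cells, *S100a14*, the genes shown within the classes and the detection of genes together were chosen after the values were seen, as were the alternatives without TMM and without cells rich in haemoglobin. Alternatives used DESeq2 1.42.0, limma, other filters and each plate left out. Coordinates are from Gencode M21 on GRCm38.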

Additional observations from a re-analysis of the deposited data

How the results depend on the processing

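The number of genes called was 0 in 20 of 23 alternatives, and leaving out each plate in turn gave 0 to 0. It was 243 without the filter on low counts (34484 genes, with 119 of the 243 among the genes tested above and 68 detected in 20 or more cells), 212 with DESeq2 over the same genes (151 higher and 61 lower, 83 of them tested above), and 1 (*Serpinb2*) with no selection on network genes. The number at an unadjusted p under 0.05 ranged from 66 (limma on mean log2(CPM + 1) per cell) to 3118 (no filter). The plate numbers did not pair all plates. Deviations of the plates numbered 1 correlated at 0.21, the highest of any pair across the genotypes. Those of plates 2 and 3 correlated at -0.002 and -0.006, and CA-ERBB2 plate 2 correlated best with Control plate 3 (0.14). With the replicate block 0 genes were called, 245 had an unadjusted p under 0.05 (118 higher, 127 lower) and *Erbb2* was at 1.74. The *Erbb2* log2 fold change stayed positive, from 0.68 (without CA-ERBB2 plate 1) to 2.61 over plates left out and to 2.94 over all alternatives. The difference in the share of cells with *Erbb2* ranged from -12.1 points, without CA-ERBB2 plate 1, to 26.5, and that in median genes per cell from -3299 to 1544, being positive (636, 1519 and 1544) without CA-ERBB2 plate 2, Control plate 1 or CA-ERBB2 plate 3. Of 418 values of the 20 genes of smallest p, 387 kept direction and side of the threshold, 28 passed it, all with DESeq2 or without the filter, and 3 changed sign: *Exosc7* (-0.43, cells with 2000 or more genes), *Hbb-bs* (0.66) and *Hba-a1* (0.47), both without haemoglobin-rich cells. *Cd63* was at -0.22 with limma, and *Sox2* ranged from -0.69 to 0.14 over plates left out, being positive without CA-ERBB2 plate 3 (0.14) or Control plate 3 (0.04). The cause of these changes was not tested. On CA-ERBB2 plates 2 and 3, with few genes per cell, absence of a gene was not detectable cell by cell.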
